A study of Mus musculus with 54 samples.

Results

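The miR-34 and miR-449 family is described here through 6 mature mouse microRNAs (miRNAs): mmu-miR-34a-5p, mmu-miR-34b-5p, mmu-miR-34b-3p, mmu-miR-34c-5p, mmu-miR-34c-3p and mmu-miR-449a-5p, written below without the prefix. They were chosen by name from the 1966 miRNA names of the liver and fat count tables and from the 79 names of the sperm table, where miR-34c-5p alone is listed. The study profiled small RNAs in liver, sperm and eWAT (epididymal white adipose tissue, which lies beside the epididymis and testis) of wild-type C57BL/6 male mice of the F0 generation. All mice ate chow from weaning, and the study diets ran from 6 to 24 weeks of age. The low-fat group (LF) had 18 weeks of low-fat diet, the high-fat group (HF) 18 weeks of high-fat diet, and the return group (HFLF) 9 weeks of high-fat followed by 9 weeks of low-fat diet. Each diet had 6 libraries per tissue, 54 in all. The table columns carry the codes C, H and R (sperm: CD, HF and RE), taken here to mean LF, HF and HFLF. No label states that replicates are separate mice, and a p-value therefore reflects library-to-library spread, which may be technical.

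A miRNA pairs with target messages mainly through its seed, bases 2 to 8 from the 5′ end, so miRNAs with the same seed can share targets. Mir34a is a direct transcriptional target of the tumour suppressor p53 and is made in many tissues. Mir34b and Mir34c come from a shared primary transcript that is abundant in testis, sperm and ciliated epithelia, and Mir449a to Mir449c lie in a further cluster used in the same kinds of cell. In mice, the miR-34b/c and miR-449 clusters act redundantly in spermatogenesis and in the formation of motile cilia.

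RefSeq (GRCm38.p6) held 5 of the 6 mature sequences, and that of miR-34c-5p was missing. They are printed 5′ to 3′ with the seed in capitals, because the seed divides the members into families that their names do not show.

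miR-34a-5p: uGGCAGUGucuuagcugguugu
miR-34b-5p: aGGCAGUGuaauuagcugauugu
miR-449a-5p: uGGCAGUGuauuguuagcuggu
miR-34b-3p: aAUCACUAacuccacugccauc
miR-34c-3p: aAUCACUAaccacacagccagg

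The 5p members shown share the seed GGCAGUG, which 4 of the 1679 mature mouse miRNAs of the table carry (0.238%), the fourth being miR-449c-5p. Having no entry there, miR-34c-5p is not in this count, which does not place it outside the seed family. The 3p members have another seed, AUCACUA, found in these 2 miRNAs alone (0.119%), so they are products of the same hairpins without the miR-34 seed. Counted from the 5′ end without gaps, miR-34a-5p and miR-449a-5p are the same at 15 of 22 positions, miR-34a-5p and miR-34b-5p at 11. The pair miR-34b-3p and miR-34c-3p is the same at 17. With 23 bases, miR-34b-5p is longer than miR-34a-5p, and an extra base shifts all later positions, so these counts do not rank likeness. The mature miR-34a-5p lies on the plus strand at chr4:150068473-150068494 (GRCm38.p6), in a hairpin that partly overlaps an exon of the provisional gene model Gm37795. On the minus strand of chromosome 9, miR-34b-5p lies at chr9:51103610-51103632, miR-34b-3p at chr9:51103574-51103595 and miR-34c-3p at chr9:51103044-51103065. The Mir34b and Mir34c hairpins are 451 bases apart, inside an intron of Btg4, which runs on the opposite strand. The mature miR-449a-5p lies on the plus strand at chr13:113037549-113037570, in an intron of Cdc20b, which runs on the same strand. The Mir34b hairpin, chr9:51103562-51103645, is shown with its mature arms in capitals, since both arms were counted and their ratio is reported below.

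Mir34b: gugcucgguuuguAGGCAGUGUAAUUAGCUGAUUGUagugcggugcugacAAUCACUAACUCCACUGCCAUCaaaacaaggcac

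Liver libraries held 7017730 to 14394584 counts and eWAT libraries 7481038 to 13022536. Levels are given as CPM, counts scaled to 1000000 per library with TMM (trimmed mean of M-values) factors within a tissue, and a count of 0 allows a level of up to 3 counts, which was 0.199 to 0.451 CPM in liver and 0.239 to 0.402 CPM in eWAT. After the filter on low counts, 6 of 6 members were tested among 571 miRNAs in eWAT and 2 of 6, miR-34a-5p and miR-34c-5p, among 422 in liver. A miRNA was called when edgeR's quasi-likelihood test gave it an adjusted p below 0.05, with Benjamini-Hochberg adjustment over every miRNA tested in that tissue and contrast. The tissue labels were checked with miR-122, the defining miRNA of hepatocytes: its strands summed to 315750 to 639790 CPM in liver and 74.9 to 8146 CPM in eWAT.

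In eWAT the members split by diet into opposite directions: miR-34a-5p was higher on high fat, and the miR-34b/c products were lower, though a few libraries weighed heavily in the second difference. From HF against LF, 4 of 6 members were called, 1 higher (miR-34a-5p) and 3 lower (miR-34b-5p, miR-34c-5p, miR-34c-3p). This compares with 34.9% of all 571 miRNAs called, 19.6% higher and 15.2% lower. By number the calls over all miRNAs were 112 higher and 87 lower, or 205 higher and 53 lower when scaled by total counts, which moved the middle of all log2 fold changes from 0.03 to 0.32. Without the 3 libraries richest in miR-34c-5p (LF 4, LF 5 and HFLF 4), miR-34a-5p was the only member called. Those libraries were picked for their miR-34c-5p level, and no HF library is among them. Leaving them out had to raise the HF against LF value of miR-34c-5p, so these fits do not test that difference. With all libraries kept, the median log2 fold change of the 6 members was -2.77, beside 0.03 over all tested miRNAs. That median rests on the same 3 libraries and on products of 1 shared miR-34b/c transcript. Without the 3 libraries the members ran from -0.40 (miR-34c-3p) to 0.97 (miR-34a-5p), beside a median of 0.08 over all tested miRNAs.

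The level of miR-34a-5p in eWAT was 195, 157, 179, 163, 188 and 176 CPM in LF replicates 1 to 6. It was 214, 446, 342, 294, 385 and 380 CPM in the HF libraries, and 259, 306, 244, 174, 220 and 262 CPM in the HFLF libraries. Every HF library lay above every LF library, with no overlap, as for 13.5% of all miRNAs in this comparison, and the lowest HF library, HF 1, stood apart from the other HF libraries at 294 to 446 CPM. Group means were 176 ± 14.3 (SD, n = 6) in LF, 344 ± 81.1 in HF and 244 ± 44.3 in HFLF. The HF level was 1.95-fold that of LF (log2 fold change 0.96, SE 0.16, adjusted p = 0.000387 by edgeR), and 6 of 6 HF libraries lay above the LF mean. Leaving out any single library kept the call, with log2 fold changes of 0.91 to 1.09. After the return to low fat, miR-34a-5p was lower than on high fat (log2 fold change -0.49, SE 0.16, adjusted p = 0.0302 by edgeR) in 6 of 6 libraries. It was the only member called in this contrast, where 25.9% of all miRNAs were called and 16.3% were called lower. That call is near the threshold and was lost without HF 2, without HFLF 5 (the highest adjusted p was 0.0526) and without LF 4, LF 5 and HFLF 4 (adjusted p = 0.0584 by edgeR). The remaining difference of HFLF from LF was 0.47 on the log2 scale (SE 0.16, adjusted p = 0.275 by edgeR). In that contrast edgeR called 0 of 571 miRNAs, with 65 at an unadjusted p below 0.05, 3 of them members, and DESeq2 called 10.

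**Figure D1:**
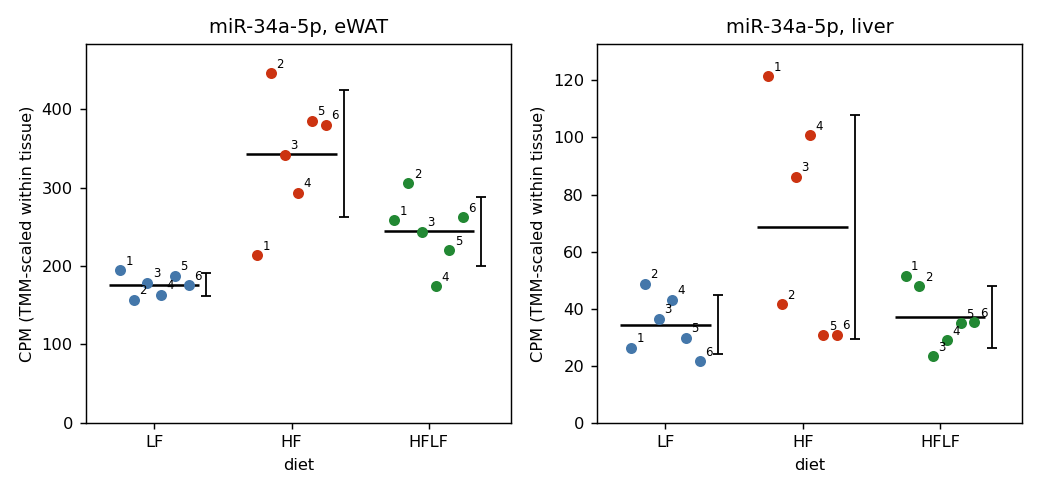
Level of miR-34a-5p in each eWAT (left) and liver (right) library, in CPM on axes that start at 0. Points are libraries with their replicate number, horizontal lines are group means and bars beside them are SD (n = 6). In eWAT the HF libraries, 214 to 446 CPM, lie above all LF libraries, while in liver 3 HF libraries at 86.2 to 121 CPM lie above all LF libraries and the other 3 do not.

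In liver, miR-34a-5p had a similar fold difference with much wider spread on high fat. Its level was 21.6 to 48.7 CPM in LF (median 33.2), 30.7 to 121 CPM in HF (median 63.9) and 23.2 to 51.5 CPM in HFLF (median 35.0). The HF libraries fell apart: HF 1, HF 3 and HF 4 had 121, 86.2 and 101 CPM, and HF 2, HF 5 and HF 6 had 41.5, 30.7 and 30.9 CPM, inside the LF range. The log2 fold change of HF against LF was 1.00 (SE 0.32), which missed the threshold at an adjusted p of 0.0554 by edgeR, and 4 of 6 HF libraries lay above the LF mean. The call depended on the setting: DESeq2 gave an adjusted p of 0.039, and scaling by total counts gave a log2 fold change of 1.24 with an adjusted p of 0.0147. Over the fits that left out each library, the edgeR adjusted p ran from 0.0192 to 0.125, and it passed without HF 2, HF 5 or HF 6. The HFLF against HF difference was -0.89 on the log2 scale (SE 0.32, adjusted p = 0.166 by edgeR). HFLF differed from LF by 0.11 (SE 0.32, adjusted p = 0.949 by edgeR). Neither member tested in liver was called in HF against LF, where 5.69% of all miRNAs were called. In both HFLF contrasts of liver edgeR called 0 of 422 miRNAs, with 51 at an unadjusted p below 0.05 against LF (0 of them members) and 65 against HF (1 member). DESeq2 called 4 and 15.

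The difference between the tissues in the HF against LF change of miR-34a-5p was tested directly in a joint fit of both tables. It was -0.04 on the log2 scale (eWAT minus liver, SE 0.34, adjusted p = 0.953 by edgeR), so differences of the size of that SE, and larger ones, in either direction lie within the error. None of the 6 members was called in that interaction, against 26.7% of the 595 miRNAs tested jointly, with 1 member, miR-34c-5p, at an unadjusted p below 0.05 and none called by DESeq2. In the interactions with HFLF, 9.58% of miRNAs were called against HF and 0% against LF (69 at an unadjusted p below 0.05), again with no member called by either tool and none at an unadjusted p below 0.05.

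Between the tissues, the members were higher in eWAT than in liver. The joint fit called 6 of 6 members, all higher in eWAT, in LF, where 65.2% of all miRNAs were called and 37.1% were higher. It called 5 of 6 in HF (72.6% of all, 41.3% higher) and 6 of 6 in HFLF (65.2% of all, 37.3% higher). The exception, miR-34b-5p in HF, had an adjusted p of 0.0608 by edgeR. Passing the filter in eWAT and not in liver, miR-34b-5p, miR-34b-3p, miR-34c-3p and miR-449a-5p could enter this fit only through eWAT. Their direction was largely set by that entry, so these member counts are no test against the shares over all miRNAs. For miR-34a-5p the log2 fold change of eWAT against liver was 1.10 (SE 0.24, adjusted p = 0.000190 by edgeR) in LF, 1.06 in HF and 1.45 in HFLF. These sizes depend on the scaling: with total counts they were 2.34, 2.37 and 2.68, while the median over all miRNAs moved from 0.36, 0.37 and 0.30 to 1.57, 1.75 and 1.53. Among all eWAT against liver differences, that of miR-34a-5p lay at percentile 64.2 in LF, 61.2 in HF and 68.2 in HFLF, above the middle.

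The other members were scarce in liver. Over the 18 liver libraries there were 148 counts of miR-34c-5p, 72 of miR-34b-3p, 23 of miR-34c-3p, 4 of miR-34b-5p and 2 of miR-449a-5p, against 36948, 13210, 2339, 1329 and 1301 in eWAT. In summed counts, scaled as in the joint fit, miR-34c-5p was 98.3-fold higher in eWAT (95% exact counting interval 83.7 to 116). For miR-34b-3p the ratio was 72.3 (57.3 to 92.4) and for miR-34c-3p 40.1 (26.6 to 63.3). With 2 liver counts, the ratio of miR-449a-5p was 256 (70.8 to 2118). These intervals cover counting error only, and the eWAT sums are dominated by few libraries, as the diet groups show: the ratio of miR-34c-5p was 222 in LF, 31.5 in HF and 38.0 in HFLF. Without LF 4, LF 5 and HFLF 4 the ratio over all diets was 24.3 (20.6 to 28.8) for miR-34c-5p, 20.7 (16.4 to 26.5) for miR-34b-3p, 11.0 (7.23 to 17.5) for miR-34c-3p and 139 (38.2 to 1149) for miR-449a-5p. In LF livers miR-34b-5p had no count, which makes eWAT at least 147-fold higher against a floor of 3 counts over the group, and at least 8.15-fold higher without LF 4 and LF 5. For the same miRNA the ratio was 15.03 (4.01 to 126) in HF and 33.1 (9.04 to 276) in HFLF, on 2 liver counts each.

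The level of miR-34c-5p in liver ran from 0.135 to 1.69 CPM, with diet groups that overlapped throughout. HF differed from LF by -0.23 on the log2 scale (SE 0.56, adjusted p = 0.903 by edgeR), and 1 to 24 counts per library limit what could be seen. The sum of all 6 members in liver was therefore almost entirely miR-34a-5p, 90.2% to 99.5% of their counts in each library, whereas in eWAT its share ran from 5.93% in LF 4 to 94.4% in HF 2.

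In eWAT the miR-34b/c products varied widely within each diet. The level of miR-34c-5p was 19.5, 142, 34.4, 1754, 819 and 34.7 CPM in LF replicates 1 to 6. It was 214, 14.7, 22.9, 59.0, 39.9 and 31.9 CPM in HF, and 28.9, 42.3, 36.8, 310, 37.0 and 67.3 CPM in HFLF. LF 4, LF 5, HFLF 4 and HF 1 were the highest of the 18 libraries, and the other 14 ran from 14.7 to 142 CPM with a median of 35.7, so the diets overlapped. The group medians were 88.2 in LF, 35.9 in HF and 39.7 in HFLF, much closer together than the means of 467 ± 702 (SD, n = 6), 63.8 ± 75.3 and 87.1 ± 110.

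**Figure D2:**
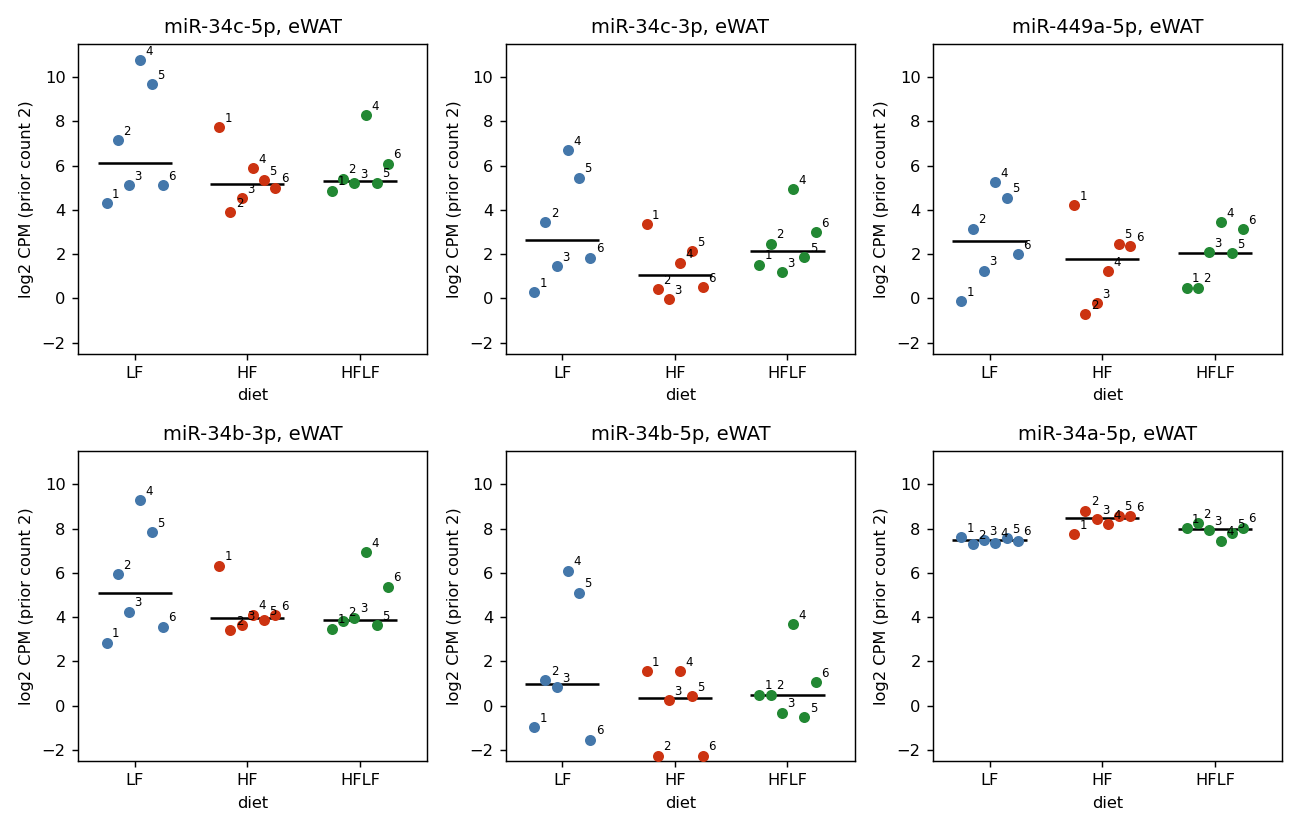
Log2 CPM (prior count 2) of the 6 members in each eWAT library by diet. Points are libraries with their replicate number, lines are group medians, and the lowest points of miR-34b-5p, HF 2 and HF 6, are counts of 0. LF 4 and LF 5 stand above all others in every panel except that of miR-34a-5p.

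The partner strands followed the same libraries. For miR-34b-3p the level was 627 and 228 CPM in LF 4 and LF 5, 122 in HFLF 4 and 79.8 in HF 1, against 6.94 to 60.7 CPM in the other 14. For miR-34c-3p it was 103, 43.5, 30.1 and 9.90 CPM in LF 4, LF 5, HFLF 4 and HF 1, against 0.756 to 10.6 CPM. The less abundant miR-34b-5p had 68.4, 33.9, 12.5 and 2.73 CPM in those libraries, and up to 2.72 CPM elsewhere, with no count in HF 2 and HF 6, where 3 counts would be 0.239 and 0.361 CPM. For miR-449a-5p the order differed: 37.6 and 23.2 CPM in LF 4 and LF 5, then 18.3 in HF 1 and 10.6 in HFLF 4, against 0.398 to 8.69 CPM in the other 14.

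Fitted over all 18 libraries, HF was lower than LF for miR-34b-5p (log2 fold change -3.80, SE 1.36, adjusted p = 0.0371 by edgeR), miR-34c-3p (-3.04, SE 1.05, adjusted p = 0.0315) and miR-34c-5p (-2.87, SE 1.07, adjusted p = 0.0459). For miR-34b-3p the value was -2.66 (SE 1.02) with an adjusted p of 0.0501 (0.0414 with RLE factors and 0.011 by DESeq2, which each called 5 members), and for miR-449a-5p -1.27 (SE 0.92) with an adjusted p of 0.298. Without LF 4, LF 5 and HFLF 4 the log2 fold change was 0.14 for miR-34c-5p (adjusted p = 0.908 by edgeR), 0.31 for miR-34b-5p (0.850), 0.02 for miR-34b-3p (0.989), -0.40 for miR-34c-3p (0.729) and 0.46 for miR-449a-5p (0.757). Leaving out HF 1 as well gave -0.76 for miR-34c-5p (adjusted p = 0.262 by edgeR), again not called. Since LF 4 and LF 5 were left out for their high miR-34c-5p, the upward shift of its value followed from that choice. The value of miR-34a-5p was 0.97 and 1.07 in the same fits (adjusted p = 0.00184 and 0.000435 by edgeR). With single libraries left out, miR-34c-5p was called in 6 of 18 fits, and not without LF 4, LF 5, any of HF 2 to HF 6, or any HFLF library other than HFLF 4 (adjusted p up to 0.190 by edgeR), whereas miR-34a-5p was called in 18 of 18. In HFLF against HF none of the 5 was called, with adjusted p-values from 0.349 to 0.934 by edgeR.

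**Figure D3:**
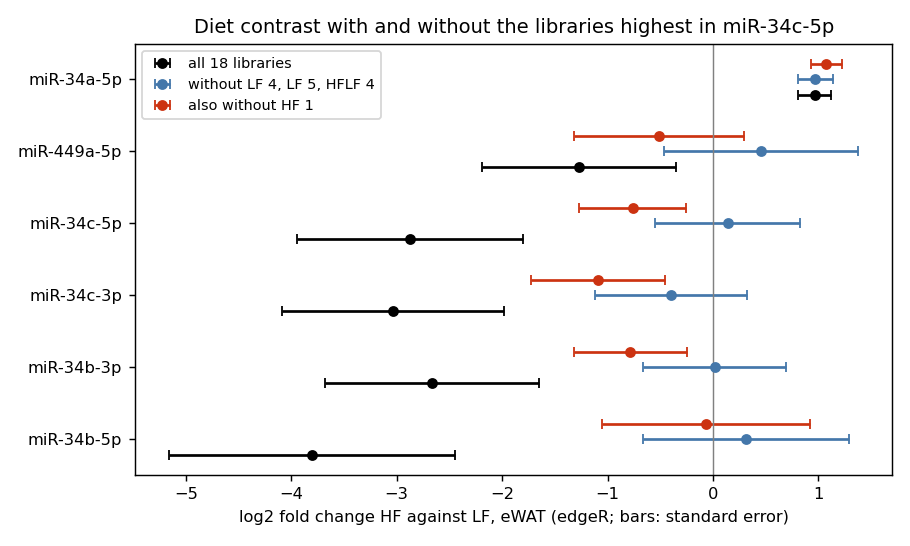
Log2 fold change of HF against LF in eWAT for each member, by edgeR, with bars of 1 standard error. Black points use all 18 libraries, blue points leave out LF 4, LF 5 and HFLF 4, and red points also leave out HF 1. The value of miR-34a-5p stays between 0.96 and 1.07, while that of miR-34c-5p goes from -2.87 to 0.14 and -0.76. The libraries were picked for their miR-34c-5p level, so this contrast between the members follows in part from the choice.

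Markers of other cells moved with these libraries. An epithelial list (miR-200a, miR-200b, miR-200c, miR-141, miR-429 and miR-205, the first 5 of which hold cells in the epithelial state) summed to 8533 CPM in LF 4, 4176 in LF 5, 2018 in HFLF 4, 1337 in LF 3 and 484 in LF 2, against 74.1 to 147 CPM in the other 13. The X-linked testis cluster, 19 miRNAs of male germ and Sertoli cells, summed to 1125 CPM in HF 1, 869 in LF 2, 852 in LF 4, 442 in HFLF 6, 273 in LF 5 and 185 in HFLF 4, against 1.91 to 161 CPM in the other 12. LF 2, LF 4 and LF 5 were thus high in both lists, HF 1 and HFLF 6 in the second list only, and LF 3 in the first only. HFLF 4 was high in the first list, while its 185 CPM in the second lay little above LF 6 at 161 CPM. Over all 571 miRNAs in eWAT, 15.2% were called lower and 19.6% higher in HF against LF. From HF against LF, 5 of 5 tested epithelial miRNAs were lower (median log2 fold change -4.65; miR-200a-3p -4.89, adjusted p = 0.00322 by edgeR), and they stayed lower without LF 4, LF 5 and HFLF 4 (5 of 5, median -2.18). A further epithelial and glandular list (miR-135a, miR-375, miR-203 and the miR-183 cluster) had 5 of 5 tested lower, and 4 of 5 without those libraries. Of the X-linked cluster 16 were tested and edgeR called none in either direction over all libraries (median -0.73) or without the 3 libraries (median -0.31); without HF 1 as well, the median was -2.41 with 1 called lower, and that of HFLF against HF was 1.68 with none called by edgeR. In liver, 3 of 8 tested were called lower in HF than in LF (median -1.41), miR-465a-3p, miR-465c-5p and miR-470-5p, where 5.69% of all 422 miRNAs were called in either direction. The part of such cells in the levels of miR-34b/c was not tested, and fewer cells of a type cannot be told apart from less RNA per cell in bulk tissue.

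The proportions within the family also differed between these libraries. There were 46.7, 35.4 and 29.4 counts of miR-34c-5p per count of miR-449a-5p in LF 4, LF 5 and HFLF 4, against 11.7, 16.3 and 7.90 in HF 1, LF 2 and HFLF 6. The ratio did not follow the epithelial list throughout: HFLF 2, the lowest in that list, had 35.6, and LF 3, with 1337 CPM of it, had 16.0. Over all 18 libraries this ratio ran from 6.46 to 46.7 with a median of 20.3. The HF libraries other than HF 1 ran from 6.46 in HF 6 to 36.8 in HF 2, on 5 to 47 counts of miR-449a-5p each. The ratio of miR-34c-5p to miR-34a-5p passed 1 in LF 4 (10.7), LF 5 (4.36) and HFLF 4 (1.78), was 1.00 in HF 1 (1883 against 1877 counts), and lay between 0.0329 and 0.903 elsewhere.

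**Figure D4:**
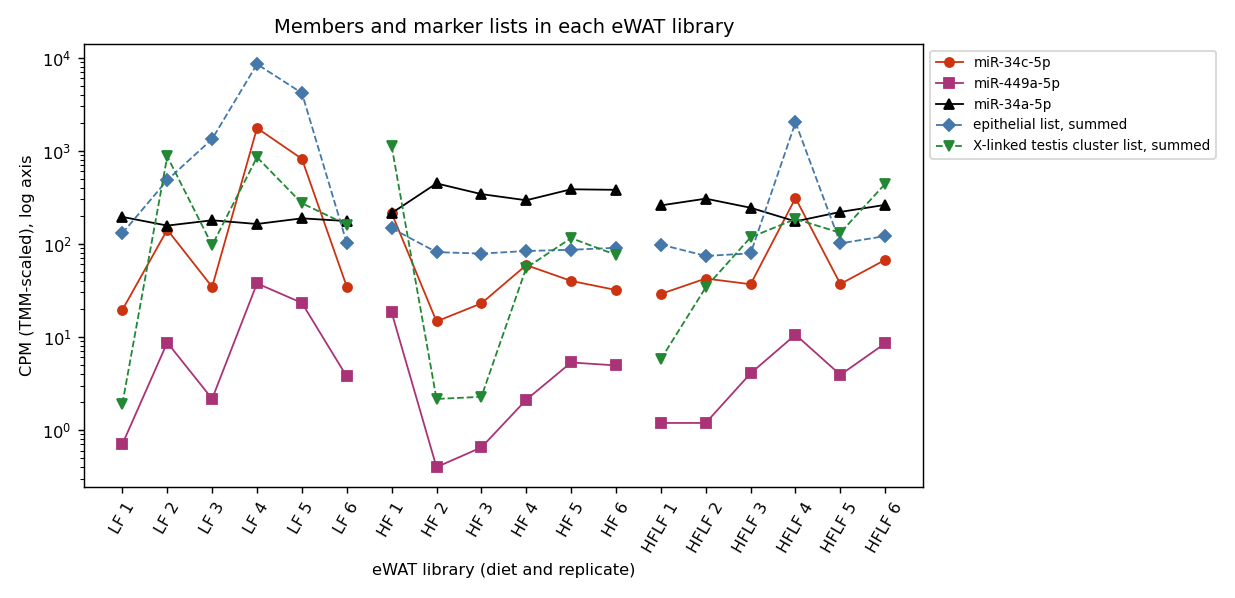
Level of miR-34c-5p, miR-449a-5p and miR-34a-5p, and summed level of the epithelial and X-linked testis cluster lists, in each eWAT library, in CPM on a log axis. Lines join libraries of a diet for reading only. The epithelial list and miR-34c-5p are high in LF 4, LF 5 and HFLF 4. In falling order, the X-linked list is highest in HF 1, LF 2, LF 4, HFLF 6 and LF 5. Of these, LF 2 and HFLF 6 have 142 and 67.3 CPM of miR-34c-5p. HF 1 is high in the X-linked list (1125 CPM) and not in the epithelial list (147 CPM).

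Arm usage was opposite in the neighbouring hairpins. The 5p arm of Mir34c outnumbered its 3p arm in 18 of 18 eWAT libraries, by 8 to 30.3 counts to 1 (median 13.6). In Mir34b, whose arms are capitalised in the hairpin above, the 3p arm outnumbered the 5p arm in all 14 libraries with more than 3 counts of each arm, by 6.23 to 30.4 to 1 (median 12.3). The more abundant product of Mir34b is therefore the arm without the GGCAGUG seed. Across the pair, miR-34c-5p exceeded miR-34b-3p by 1.41 to 3.59 to 1, a narrow range beside levels that spanned 14.7 to 1754 CPM. In Mir34a the 5p arm had 593 counts per count of miR-34a-3p, which had 75 counts over all eWAT libraries. The remaining products were scarce in eWAT: 51 counts of miR-449c-5p, 21 of miR-449a-3p, and none of miR-449b and miR-449c-3p in any of the 18 libraries. Ligation and amplification in library preparation differ between small RNA sequences, so ratios between different miRNAs describe counts and not molecules.

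Likeness of profile was measured as the root mean square difference of log2 CPM, each centred on its mean over the 18 eWAT libraries. The 4 miRNAs nearest to miR-34c-5p among the other 570 were miR-34b-3p (0.37), miR-34c-3p (0.51), miR-34b-5p (0.87) and miR-449a-5p (0.87), beside a median of 1.93. That median is close to the SD of miR-34c-5p itself, 1.9, which is about the distance to a miRNA that does not vary. Over the 14 libraries without LF 4, LF 5, HFLF 4 and HF 1, miR-34b-3p was again nearest (0.38) and miR-34c-3p was at rank 3 (0.51), while miR-449a-5p was at rank 87 and miR-34b-5p at rank 231 of 579. Nearest to miR-34a-5p were none of its seed relatives but miR-149-5p (0.24), miR-155-5p (0.25), miR-574-3p (0.28) and miR-484 (0.29), with a median of 0.66. The measure is not scaled for spread, and the SD of miR-34a-5p was only 0.469. Relatives that vary far more could not lie near it whatever their pattern, so their absence here is no test of likeness. The 4 nearest were picked for this likeness over the same libraries, so their HF against LF log2 fold changes of 0.62 to 0.94 restate the choice. Among them miR-155-5p, a miRNA induced in activated leukocytes, is also in the leukocyte list below. In liver the nearest to miR-34a-5p were miR-335-3p (0.41), miR-107-3p (0.43), miR-292b-5p (0.44) and miR-190a-5p (0.48).

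Other miRNAs linked to p53 were mostly lower on high fat in eWAT, where miR-34a-5p was higher. Over all 571 miRNAs, 15.2% were called lower and 19.6% higher there. Of 11 listed, 9 were tested, and from HF against LF 7 were lower and 0 higher (median log2 fold change -1.37, beside 0.03 over all miRNAs). Without LF 4, LF 5 and HFLF 4, 5 were lower and 0 higher (median -0.67). The lower members included miR-143-3p (-1.37, SE 0.28, adjusted p = 0.00124 by edgeR), whose processing p53 promotes and which is abundant in stroma and fat, and miR-215-5p (-2.53, SE 0.54, adjusted p = 0.00153), from a cluster of epithelial tissues. In liver 10 were tested and 2 were higher, miR-107-3p (0.60, SE 0.15, adjusted p = 0.0186 by edgeR), which was also among the nearest to miR-34a-5p there, and miR-194-5p (0.29, SE 0.08, adjusted p = 0.0350 by edgeR). Over all 422 miRNAs in liver, 5.69% were called in either direction. The p53 list shares miR-200c and miR-141 with the epithelial list and miR-143 and miR-145a with an adipocyte list. None of the 6 members was placed in it. The activity of p53 was not measured, and its part in the levels of the members was not tested.

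Marker miRNAs of leukocytes and adipocytes differed between the diets in eWAT. Over all 571 miRNAs, 19.6% were called higher and 15.2% lower in HF against LF. Of the leukocyte list, 5 of 8 were higher in HF than in LF and 0 lower (median log2 fold change 0.84), among them miR-342-3p (3.13, SE 0.43, adjusted p = 0.000193 by edgeR), miR-155-5p, and miR-223-3p of myeloid cells (0.82, SE 0.13, adjusted p = 0.000312). The summed list had a median of 2493 CPM in LF (1884 to 2732), 3668 in HF (2467 to 4875) and 3016 in HFLF (2289 to 3758). Of the adipocyte list, 5 of 5 were lower in HF (median -0.92), and 4 of 5 without LF 4, LF 5 and HFLF 4, while the leukocyte count stayed at 5. The 2 strands of the hepatocyte miRNA miR-122 were tested in eWAT and not called. Whether these shifts have a part in the higher miR-34a-5p of HF fat was not tested. In liver, where miR-34a-5p had a log2 fold change of 1.00, 0 of 8 leukocyte miRNAs were called by edgeR and the list median was 0.12, while miR-122-5p was called lower in HF (-0.37, SE 0.10, adjusted p = 0.0350 by edgeR), whose part was not tested either.

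The last tissue was sperm, in which miR-34c-5p is known to be abundant, and in the deposited values it ranked 5 of 79 by mean, behind miR-10a-5p, miR-10b-5p, let-7a-5p and miR-143-3p (14.1 ± 0.44 on the deposited log scale, SD, n = 18; the median of the 79 means was 3.56). It was 14.0, 14.4, 14.4, 13.7, 14.4 and 14.1 in LF replicates 1 to 6. It was 14.4, 13.4, 14.0, 13.3, 14.0 and 13.7 in HF, and 14.5, 14.5, 14.2, 13.8, 14.9 and 14.7 in HFLF. The groups overlapped, with the lowest values in HF 4 and HF 2 and the highest in HFLF 5. Group means were 14.2 ± 0.29 (SD, n = 6) in LF, 13.8 ± 0.42 in HF and 14.4 ± 0.41 in HFLF. The HF against LF difference was -0.35 (SE 0.23, adjusted p = 0.259 by limma), and HFLF against LF 0.26 (SE 0.23, adjusted p = 0.623 by limma). For HFLF against HF it was 0.60 (SE 0.23), with an unadjusted p of 0.0152 and an adjusted p of 0.0905 by limma, and 5 of 6 HFLF libraries lay above the HF mean. Without HF 1 the adjusted p was 0.0358 by limma, and with each other library left out it stayed above the threshold, up to 0.156. Of the 79 miRNAs limma called 0% in both contrasts with LF (24 at an unadjusted p below 0.05 for HF, 11 for HFLF, miR-34c-5p in neither) and 1.27% in HFLF against HF. The sperm values were normalised apart from the tissue counts and cannot be set on the same scale. Each of the 79 names comes with a cluster number, and how the names were selected is not stated. The rank and the shares called hold within that list, and members missing from it may still be present in sperm.

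**Figure D5:**
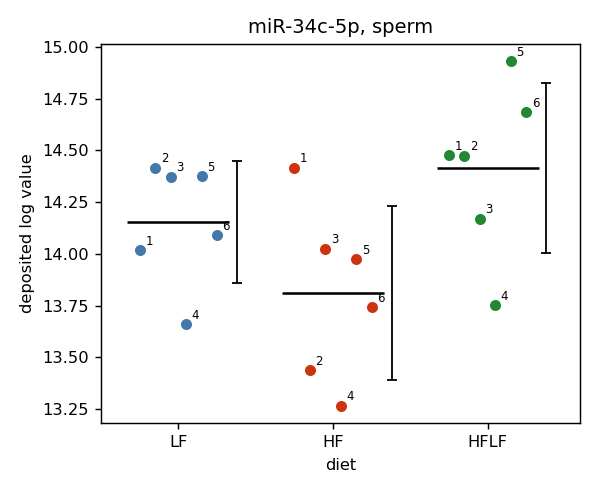
Deposited log value of miR-34c-5p in each sperm library by diet, on an axis that does not start at 0. Points are libraries with their replicate number, lines are group means and bars are SD (n = 6). The HF mean of 13.8 lies below those of LF (14.2) and HFLF (14.4), and the groups overlap.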

How the data were processed

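Libraries came from a NEXTFLEX small RNA kit, per the labels' protocols, and the submitters' processing notes name cutadapt, Bowtie and GRCm38.p6; the miRNA reference and counting program are not given in the sources used here. For liver and eWAT the authors deposited unnormalised counts per miRNA name. The deposited sperm values, for 79 miRNAs, lie on a log scale that was treated as log2, with neither base nor transformation stated, and 18 further columns matched no sample and were not used. The eWAT table repeats 18 liver columns, which were used once.

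Counts were fitted with edgeR 4.0.16 in R 4.3.3 (filterByExpr, TMM, quasi-likelihood, 3 diets per fit), separately by tissue and jointly for tissue contrasts. The SE of an edgeR value was derived from the test, as the unsigned log2 fold change divided by the square root of the F statistic. Sperm values were fitted with limma 3.58.1 (trend). Log2 CPM used a prior count of 2. A library counts toward a direction if it lies beyond the other group's mean on the log2 scale. Ratios between members needed more than 3 counts of each. Scripts were tested on simulated data. Named miRNAs are the 6 members, the 4 nearest in profile, and up to 3 of smallest p from each list. Members, lists and the omission of libraries were chosen with earlier results of these data known. Alternatives were DESeq2 1.42.0, other scalings, no filter, the compared diets alone, a replicate block and leaving out libraries.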

Additional observations from a re-analysis of the deposited data

Results flagged for a closer look

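In 2 of 27 groups of 6 libraries checked, 1 library lay far from the others by Dixon's test at 95%, which chance alone gives in about 5% of groups. The test used log2 values, on which high libraries stand out less than in the CPM given here. In HF fat, miR-34b-3p was 79.81 CPM in HF 1, and the next library had 16.95. In HFLF fat, miR-34c-5p was 310.2 CPM in HFLF 4, and the next had 67.29. The markers high in these libraries were the X-linked testis cluster in HF 1 and the epithelial list in HFLF 4, and their part was not tested.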

How the results depend on the processing

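The higher miR-34a-5p of HF fat kept its direction and its call under every alternative run. In liver, HF against LF, miR-34a-5p was called, as 1 member of the tested ones, with total counts (1.238), DESeq2 (0.9817) and no filter on low counts (1.00), and in HFLF against HF with no filter (-0.8722, 1 member). In HF against LF of eWAT, miR-34c-5p was no longer called with total counts (-2.679), no filter (-2.891, 2 members called), the compared diets alone (-2.881, 1 member) or without 3 or 4 libraries (0.1376 and -0.7618, 1 member each). With RLE factors or DESeq2, 5 members were called there, with miR-34b-3p (-2.757 in both) added. In HFLF against HF of eWAT, miR-34a-5p was not called, and 0 members were, with no filter (-0.4869), the compared diets alone (-0.4794) or without 3 libraries (-0.4317). Same-numbered libraries did not deviate together in every pair: the correlations ran from -0.776 to 0.121 for HF and LF fat, -0.311 to 0.706 for HFLF and LF fat, and -0.0859 to 0.112 for fat and liver of a diet. The labels do not say whether a number marks the same mouse in fat and liver; with it as a replicate block 6 members were called in each tissue contrast and 0 in each interaction. With the replicate block in eWAT, miR-34c-5p was -2.012 in HF against LF, with 1 member called, and miR-449a-5p in HFLF against HF of eWAT turned to 0.2852. Members called with single libraries left out were 1 to 5 in eWAT HF against LF, 0 to 1 in HFLF against HF, 0 to 1 in liver HF against LF, 5 to 6 in the tissue contrasts, 0 to 1 in the HF against LF interaction and 0 to 1 in sperm HFLF against HF. The same fits gave, for HF against LF, HFLF against HF and HFLF against LF in turn, 0.9103 to 1.095, -0.6199 to -0.4356 and 0.3843 to 0.5051 for miR-34a-5p in eWAT. For miR-34a-5p in liver they gave 0.7654 to 1.157, -1.035 to -0.647 and -0.001234 (without HFLF 1) to 0.2425. For miR-34c-5p they gave -3.735 to -1.686, -0.6467 (without HFLF 4) to 1.336 and -3.529 to -1.338 in eWAT, and -0.5221 to 0.0944 (without LF 1), 0.109 to 0.6754 and -0.1069 to 0.4915 in liver, where HFLF against LF also turned without LF 4 (-0.009049) and HFLF 4 (-0.06538). In sperm they gave -0.4663 to -0.2363, 0.4955 to 0.7369 and 0.156 to 0.3918. Without 3 libraries, HF against LF turned to 0.01597 for miR-34b-3p, 0.3092 for miR-34b-5p and 0.455 for miR-449a-5p, HFLF against LF to 0.03463 for miR-34b-5p (0.03739 without 4), and HFLF against HF to -0.438, -0.2745 and -0.6055 for miR-34b-3p, miR-34b-5p and miR-34c-5p. With single libraries left out, HFLF against HF ran from -0.4743 to 1.317 for miR-34b-3p and from -0.2847 to 1.624 for miR-34b-5p, both negative without HFLF 4, and from -0.5402 to 0.8638 for miR-449a-5p, which turned without HF 1 (0.8638), HFLF 1 (0.09187), HFLF 2 (0.08476) or 4 libraries (0.486). Calls over all miRNAs moved by over 1.5 times in liver HF against LF (24, to 61 with total counts and 47 with DESeq2), liver HFLF against LF (0, to 4 with DESeq2 and 15 with no filter), liver HFLF against HF (0, to 15 and 9), eWAT HFLF against HF (148, to 89 with no filter), and eWAT HFLF against LF (0, to 10 with DESeq2 and 7 without 3 libraries). In the tissue interactions they moved in HF against LF (159, to 103 with the block), HFLF against HF (57, to 25 with no filter and 34 with the block) and HFLF against LF (0, to 9 with DESeq2 and 3 without 3 libraries). In sperm they moved in HF against LF (0, to 13 with a filter on low values and 5 with the compared diets alone) and HFLF against HF (1, to 6 and, with the block, 2). The cause of these changes was not tested. Depth limits the scarce members most, since liver holds 1 to 24 counts of miR-34c-5p per library.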
